A study of Caenorhabditis elegans with 12 samples.

Results

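The cytoplasmic ribosomal protein genes of Caenorhabditis elegans were taken as all genes whose symbol starts with rpl- (proteins of the large ribosomal subunit) or rps- (proteins of the small subunit) in the probe annotation. The rule found 68 genes, of which 67 had a value on at least 3 of 4 arrays of every mutant: 38 rpl genes and 29 rps genes among 12887 genes tested. Each of the 67 was read by 1 probe. On double mutant replicate 2 rpl-32 had no value, and the other 66 genes were complete over the 12 arrays. The gene left out was rpl-41.1, which had no value in the double mutant, 1 of -3.73 in mes-4 replicate 2, and 0.95, -1.17, 0.52 and -0.27 in mes-2 replicates 1 to 4. A further 10 ribosomal protein genes of the gene table, rpl-10a, rpl-12, rpl-17, rpl-18A, rpl-22, rpl-26, rpl-27A, rpl-31, rpl-7A and rps-27A, were not analysed here.

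A ribosome holds 1 copy of most ribosomal proteins, assembled on ribosomal RNA in the nucleolus, so cells make the proteins in step and their genes are often read as a single co-expressed module. In the germ line, ribosomes support the growth of the syncytial gonad and are loaded into oocytes. Most ribosomal proteins of the worm come from single genes, while a few have paralogs, such as rpl-11.1 and rpl-11.2. MES-2 is the Polycomb-group methyltransferase for H3K27 and MES-4 a methyltransferase for H3K36. Both are passed on by the mother and are known for keeping the X chromosome largely silent in the worm's germ line.

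RNA of dissected adult germ lines was hybridised on 12 two-colour arrays, each with 1 mutant and 1 wild-type sample of worms grown at 20 °C. The mes-2; mes-4 double mutant (strain SS0965), the mes-4 mutant (SS0803) and the mes-2 mutant (SS0186) had 4 independently harvested replicates each, and the labels name no mes allele. Wild type was unc-4(e120) for the double mutant and for mes-2, and N2 for mes-4. Single-mutant and wild-type germ lines came from adults carrying few if any fertilized embryos, whereas for the double mutant only well-grown germ lines that held oocytes were taken.

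Every value is a log ratio within an array, read as log2 of mutant over wild type, although the labels state neither base nor direction. Ratios give no level of a gene, so whether the tissue expressed its defining markers could not be examined, and fewer cells of a type cannot be told apart from less RNA per cell. The probe of mes-2 lay below 0 on 4 of 4 double mutant arrays (fit -2.49, SE 0.20, limma adjusted p = 1.51e-05) and on 4 of 4 mes-2 arrays (-2.80, SE 0.20, adjusted p = 2.24e-05). The probe of mes-4 had -0.03 in the double mutant (adjusted p = 0.956) and 0.63 in mes-4 (SE 0.24, adjusted p = 0.227), so it gives no check of the mes-4 labels, on which the direction of the mes-4 ratios rests. Across all genes, arrays of different mutants correlated at 0.089 to 0.738 where the mutant carried the same dye (24 pairs) and at -0.127 to 0.516 where the dyes were opposite (24 pairs). The fits reported here therefore hold the dye as a term. Its adjusted p was under 0.05 for 32.0% of all genes and for 3 of 67 ribosomal protein genes (4.48%), rps-20, rps-14 and rpl-41.2.

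On 2 arrays the ribosomal protein genes lay unusually close together. On double mutant replicate 2 the interquartile range over the genes was 0.115, against 0.65 over all genes of that array, and 46 of 66 values lay within 0.1 of their median. On mes-4 replicate 4 the range was 0.05, against 0.49 over all genes, and 53 of 67 values lay within 0.1 of their median. On the other 10 arrays the range over the ribosomal protein genes was 0.42 to 0.60. The mitochondrial ribosomal protein genes had ranges of 0.39 on both of these arrays. The cause of the narrow range was not tested. Fits of rpl-11.2 and the count of ribosome biogenesis genes called lower are also given without these 2 arrays. The other results below include them unless stated.

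**Figure D1:**
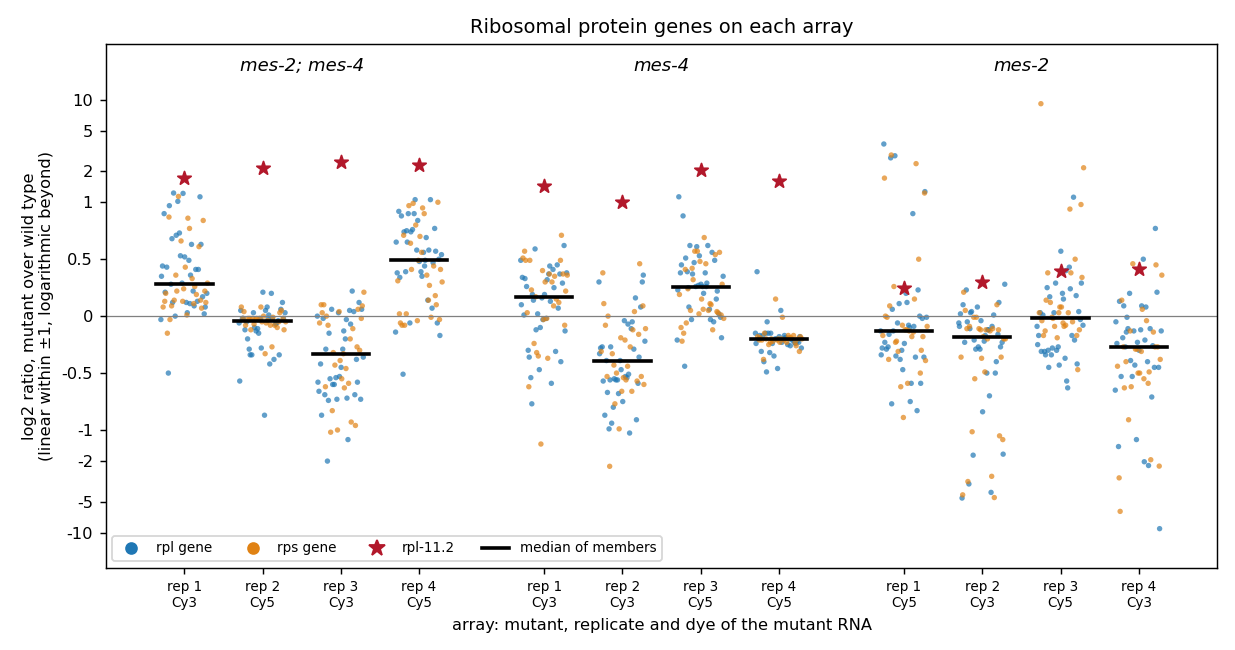
Log2 ratio of mutant over wild type (vertical axis, linear within ±1 and logarithmic beyond) of the ribosomal protein genes on each of the 12 arrays, with the dye of the mutant RNA under each replicate. Points are genes, black bars the array's median over them and stars rpl-11.2, which is the highest of the genes on all 4 double mutant and all 4 mes-4 arrays. The points of double mutant replicate 2 and mes-4 replicate 4 lie close together, and the mes-2 arrays hold single points as far out as -9.17 and 9.15.

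The comparison of each mutant with wild type asks which germline transcripts depend on the methyltransferase. In the double mutant 1 ribosomal protein gene rose, rpl-11.2, against 9.62% of all genes called higher, and 1 fell, rpl-42, against 6.25% of all genes called lower. Both belong to the large subunit, and 0 of 29 rps genes were called. In the mes-4 mutant rpl-11.2 alone rose (2.52% of all genes were called higher) and no member was called lower (1.39% of all genes). In the mes-2 mutant 0 members were called in either direction by limma, against 3.94% of all genes higher and 1.30% lower, and 5 members had an unadjusted p under 0.05, 7.46% of them against 16.5% of all genes.

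The standard errors of the ribosomal protein genes were wider than those of other genes, with a median of 0.216 in the double mutant against 0.141 over all genes. Each gene has 1 estimate of spread shared over the 12 arrays, so its values in 1 mutant also set its intervals in the others. For example, rps-4 had an SD of 6.06 in mes-2 and of 0.05 in the double mutant. The intervals are therefore not each mutant's own precision. In the double mutant the 95% interval of the log2 ratio lay within a 2-fold change either way for 57 members (85.1%, against 83.1% of all genes). It did so for 56 members in mes-4 (83.6%, against 89.5%) and for 51 in mes-2 (76.1%, against 88.7%). Within a 1.5-fold change lay the intervals of 28 members in the double mutant (41.8%, against 55.0% of all genes), 32 in mes-4 (47.8%, against 65.9%) and 23 in mes-2 (34.3%, against 64.4%). For most members the deposited ratios, with the 2 arrays of narrow range included, thus bound a change at 2-fold, and for fewer at 1.5-fold. Some members held the same values as each other. For example, rpl-10L and rps-16 both had -0.03, -0.06 and 0 on double mutant replicates 1 to 3. Whether such ratios follow a change in RNA was not tested, so the bound is one on the ratios.

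Apart from rpl-11.2, fitted ratios of the other 66 members ran between -0.64 and 0.51 in the double mutant, where 64 lay within ±0.5. In mes-4 all 66 lay within ±0.5, between -0.50 and 0.395. In mes-2 the range was -2.33 to 0.91, and 54 lay within ±0.5. The plot of fitted ratios shows rpl-11.2 standing off from a near-continuous run of the other genes in the double mutant and in mes-4, and not in mes-2.

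**Figure D2:**
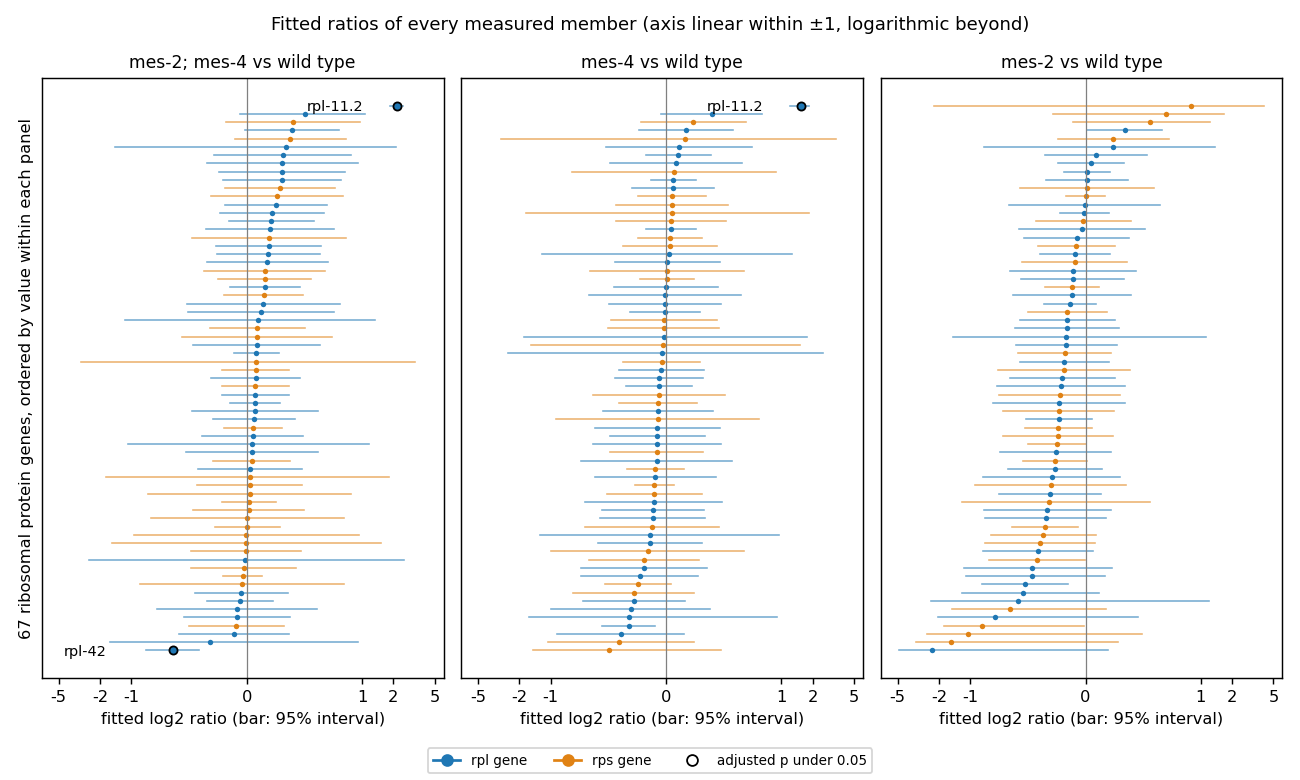
Fitted log2 ratio (horizontal axis, linear within ±1 and logarithmic beyond) of each of the 67 measured ribosomal protein genes in the double mutant, the mes-4 mutant and the mes-2 mutant, ordered by value within each panel. Points are limma estimates, bars their 95% intervals and black rings genes with an adjusted p under 0.05: rpl-11.2 and rpl-42 in the double mutant, rpl-11.2 in mes-4 and none in mes-2.

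The gene rpl-11.2 encodes a form of RPL11 and lies on the X chromosome. RPL11 binds 5S ribosomal RNA together with RPL5 in the large subunit. On the 4 double mutant arrays its log2 ratio was 1.72, 2.18, 2.48 and 2.31, on the mes-4 arrays 1.43, 1.00, 2.08 and 1.62, and on the mes-2 arrays 0.25, 0.30, 0.40 and 0.41. All 12 values lay above 0, the double mutant and mes-4 values overlapped, and no mes-2 value reached any of either. The fit gave 2.17 in the double mutant (SE 0.15, n = 4, a 4.51-fold ratio, limma adjusted p = 4.94e-06) and 1.53 in mes-4 (SE 0.15, n = 4, 2.89-fold, adjusted p = 0.000263). In mes-2 it gave 0.34 (SE 0.15, n = 4, 95% interval 0.02 to 0.66, unadjusted p = 0.0416, adjusted p = 0.273). Without the 2 narrow arrays the gene had 2.22 in the double mutant (adjusted p = 0.000249) and 1.55 in mes-4 (adjusted p = 0.00612).

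The difference between mutants was tested in the same fit. rpl-11.2 was higher by 1.83 in the double mutant than in mes-2 (SE 0.21, adjusted p = 0.000618), which share the wild-type strain. It was higher by 1.19 in mes-4 than in mes-2 (SE 0.21, adjusted p = 0.0148). That call was lost without mes-4 replicate 1 (adjusted p = 0.0613), without mes-2 replicate 1 (adjusted p = 0.056) and without the 2 narrow arrays (adjusted p = 0.0675), while the value stayed at 1.11 to 1.21. The double mutant exceeded mes-4 by 0.64 (SE 0.21, 95% interval 0.18 to 1.10, adjusted p = 0.19), which did not pass. The last 2 differences also hold the difference between unc-4(e120) and N2.

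The paralog rpl-11.1, on chromosome V, had 0.11, -0.02, -0.03 and 0.44 in the double mutant, 0.44, -0.07, 0.26 and -0.17 in mes-4, and -0.10, -0.12, 0.40 and -2.04 in mes-2. Its values straddled 0 in every mutant. The fits were 0.125 (95% interval -0.51 to 0.76, limma adjusted p = 0.849), 0.115 (-0.52 to 0.75, adjusted p = 0.946) and -0.465 (-1.10 to 0.17, adjusted p = 0.484) in the double mutant, mes-4 and mes-2. Taken within each array, rpl-11.2 exceeded rpl-11.1 by 2.05 ± 0.39 in the double mutant (SD, n = 4, 4 of 4 arrays), by 1.42 ± 0.45 in mes-4 (4 of 4) and by 0.81 ± 1.11 in mes-2 (3 of 4). The mes-2 values rest on replicate 4: without it the difference was 0.26 ± 0.22 (SD, n = 3) and the rpl-11.1 fit 0.05. A two-sided exact sign-flip test gave p = 0.125 in the double mutant and in mes-4, the smallest it can give, and p = 0.25 in mes-2. For RPL5, which binds 5S ribosomal RNA alongside RPL11, the fits of rpl-5 were 0.05 in the double mutant, 0.09 in mes-4 and -0.23 in mes-2 (SE 0.26 each). In mes-2 rpl-5 had -0.83, -0.50, 1.12 and -0.71, so replicate 3 alone lay above 0. Without replicate 3 the fit was -0.72 (SE 0.11, limma adjusted p = 0.00663). That array is the one opposed to the others, so this p is no support for a fall. Without replicate 1, 2 or 4 the fit was 0.01, -0.14 or -0.065 (limma adjusted p = 0.997, 0.925 and 0.966).

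The other pairs of paralogs had no member called. RPL23A, encoded by rpl-23A.1 on X and rpl-23A.2 on chromosome I, lies at the exit of the tunnel through which the new protein leaves the ribosome. The X-linked rpl-23A.1 had 0.97, -0.20, -0.29 and 0.74 in the double mutant, -0.36, -0.67, 0.51 and -0.40 in mes-4, and -0.16, -0.05, -0.34 and 0.09 in mes-2. Its paralog rpl-23A.2 had 0.41, -0.06, -0.69 and 0.47 in the double mutant, 0.07, -0.91, 0.49 and -0.21 in mes-4, and 0.23, -0.40, -0.21 and -0.26 in mes-2. Neither kept to 1 side of 0 in any mutant. The fits for rpl-23A.1 were 0.305 (SE 0.23, limma adjusted p = 0.453), -0.23 (adjusted p = 0.812) and -0.115 (adjusted p = 0.889) in the double mutant, mes-4 and mes-2.

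In the pair encoding RPL37, rpl-37.1 on chromosome II had 1.13, -0.29, -0.38 and 0.77 in the double mutant, 0.37, -0.59, 0.15 and -0.23 in mes-4, and 0.00, -0.16, 0.18 and -0.45 in mes-2. Its paralog rpl-37.2 on chromosome III had 0.29, -0.04, 0.03 and 0.58 in the double mutant, 0.16, -0.39, 0.27 and -0.20 in mes-4, and -0.30, -0.29, -0.27 and -1.24 in mes-2. All 4 mes-2 values of rpl-37.2 lay below 0 and below every value of the double mutant. Its fit in mes-2 was -0.525 (SE 0.17, unadjusted p = 0.00966, adjusted p = 0.116). Differences between paralogs were compared between mutants in 9 two-sided exact permutation tests, a comparison added after the values had been seen. None passed after adjustment. With 4 arrays against 4 the smallest possible p was 0.0286, so 1 test alone could not pass after adjustment over 9. The lack of a pass therefore decides nothing. The lowest p was 0.0571 (adjusted over the 9, 0.322), for rpl-37.1 minus rpl-37.2, which had -0.035 ± 0.18 in mes-4 and 0.42 ± 0.28 in mes-2 (SD, n = 4 each). For rpl-11.2 minus rpl-11.1 the permutation p was 0.114 between the double mutant and mes-2 (adjusted 0.322), where the smallest possible was 0.0286. Probes of paralogs can hybridise to each other's transcripts, which would draw their ratios together, and this was not tested.

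**Figure D3:**
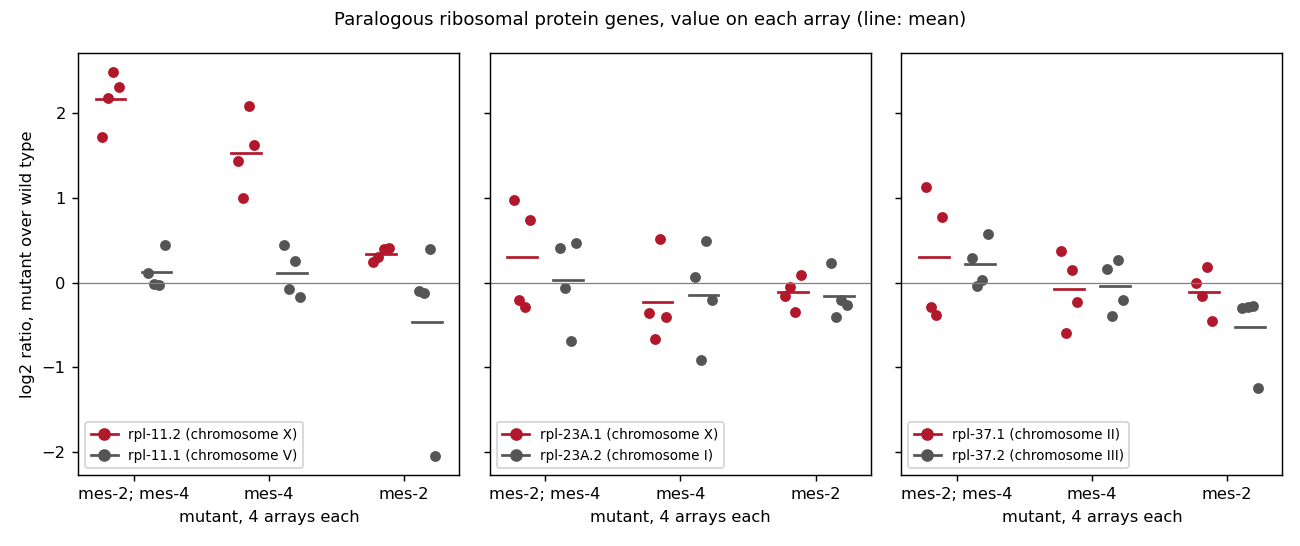
Log2 ratio of mutant over wild type (vertical axis) of 3 pairs of paralogous ribosomal protein genes on each array of the double mutant, the mes-4 mutant and the mes-2 mutant. Points are arrays and lines means of 4. rpl-11.2 lies at 1.00 or above on every double mutant and mes-4 array, apart from rpl-11.1, while the members of the other pairs overlap in the double mutant and in mes-4.

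Among the 67 genes only rpl-11.2 and rpl-23A.1 lie on the X chromosome, 2.99% of them against 13.2% of all genes tested. Of the 1697 X-linked genes tested, 358 (21.1%) were called higher in the double mutant, 193 (11.4%) in mes-4 and 58 (3.42%) in mes-2. A fitted ratio at or above that of rpl-11.2 was found for 86 X-linked genes in the double mutant (5.07%), 49 in mes-4 (2.89%) and 252 in mes-2 (14.8%). rpl-11.2 was thus high among X-linked genes as well in the double mutant and in mes-4. The highest autosomal member had 0.51 in the double mutant, 0.395 in mes-4 and 0.91 in mes-2.

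rpl-42, on chromosome II, was the lowest member in the double mutant. It had -0.50, -0.87, -0.69 and -0.51 in the double mutant, -0.30, -0.39, -0.44 and -0.17 in mes-4, and -0.27, 0.23, -0.31 and -0.19 in mes-2. All double mutant values lay below all values of the other mutants, without overlap with mes-4 (1.68% of all genes) or with mes-2 (3.58% of all genes), but neither difference between mutants was called. The fit gave -0.64 in the double mutant (SE 0.10, n = 4, a ratio of 0.641, limma adjusted p = 0.0015). It gave -0.325 in mes-4 (SE 0.10, adjusted p = 0.125) and -0.135 in mes-2 (adjusted p = 0.599). The call in the double mutant was lost when its 4 arrays were fitted alone (adjusted p = 0.119), where 0.163% of all genes were called lower in place of 6.25%, and when a change of at least 1.5-fold was asked for (0.481% of all genes).

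The outermost of the other large-subunit genes varied widely between replicates. rpl-32, the next highest member in the double mutant, had 0.43, -0.02 and 0.88 on its 3 measured arrays there (fit 0.51, n = 3, limma adjusted p = 0.228). rpl-8, whose protein lies close to the peptidyl transferase centre, had 0.36, -0.57, -0.72 and 0.49 in the double mutant (fit -0.11) and lay below 0 on all 4 mes-2 arrays (fit -0.41, SE 0.21, adjusted p = 0.386). rpl-36A had 0.28, 0.08, -2.01 and 0.39 in the double mutant, so its fit of -0.315 rested on replicate 3. In mes-4, rpl-27 had 0.34, -0.28, 1.13 and 0.39 (fit 0.395, adjusted p = 0.427) and rpl-13 had -0.77, -0.56, 0.25 and -0.49 (fit -0.39, adjusted p = 0.586). Each set of values listed straddled 0. rpl-41.2, the measured gene for the very small protein RPL41, had fits of 0.085, 0.06 and 0.015 in the double mutant, mes-4 and mes-2 (SE 0.09 each).

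Some large-subunit genes with small standard errors, picked after their values were seen, lay near 0. rpl-3 had 0.07 in the double mutant, 0.04 in mes-4 and -0.01 in mes-2 (SE 0.10 each). rpl-9 had 0.16, -0.01 and -0.09 (SE 0.14 each) and rpl-23 had 0.075, -0.06 and 0.05 (SE 0.13 each) in the same order of mutants.

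Of the small-subunit genes none was called in any mutant. rps-6, whose protein is the classic substrate of S6 kinase, had -0.025, -0.02 and -0.095 in the double mutant, mes-4 and mes-2 (SE 0.21 each). rps-24 had the smallest standard error of the family, 0.08, with -0.03, -0.10 and 0.00 in the same order, and rps-3A had 0.02, 0.005 and -0.115 (SE 0.11). The highest rps gene in the double mutant was rps-26, whose protein sits near the exit of the mRNA channel, with 1.14, -0.08, -0.43 and 0.99 (fit 0.405, limma adjusted p = 0.366). In mes-4 the outermost rps genes were rps-10, with 0.71, 0.46, 0.03 and -0.26 (fit 0.235), rps-18, with -1.37, -0.99, 0.57 and 0.15 (fit -0.41, adjusted p = 0.668), and rps-29, with 0.23, -2.26, 0.24 and -0.20 (fit -0.50, adjusted p = 0.766). In each of these genes the arrays of 1 mutant lay on both sides of 0.

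In the mes-2 mutant the family lay slightly below 0 without a call. The median fitted ratio was -0.20, against -0.00 over all genes, and 55 of 67 members were fitted below 0 (82.1%, against 50.8% of all genes). In mes-4 the median was -0.06 with 44 members below 0 (65.7%, against 50.4%), and in the double mutant 0.08 with 15 below 0 (22.4%, against 49.0%). Other lists, described below, also had mes-2 medians below 0: mitochondrial ribosomal proteins -0.24, ribosome biogenesis -0.23, proteasome subunits -0.11 and initiation factors -0.10. The mes-2 median was -0.06 for tRNA synthetases, -0.02 for elongation and release factors and 0.045 for TOR and S6 kinase genes. On all 4 mes-2 arrays 17 members lay below 0 (25.4%, against 8.64% of all genes): rpl-4, rpl-7, rpl-8, rpl-10L, rpl-13, rpl-14, rpl-19, rpl-24, rpl-37.2, rps-3, rps-6, rps-8, rps-9, rps-14, rps-18, rps-21 and rps-28. In the double mutant and in mes-4 rpl-42 alone lay below 0 on every array, against 9.86% and 8.40% of all genes. Above 0 on every array lay rpl-11.2 and rps-4 in the double mutant (12.1% of all genes), rpl-11.2 in mes-4 (9.17%) and rpl-11.2 in mes-2 (11.4%). The members share arrays, on which many of them rise and fall together, so these counts are no independent evidence of a direction. The fits of these 17 genes in mes-2 lay between -0.525 for rpl-37.2 and -0.095 for rps-6, and rps-14 had -0.35 (SE 0.13, limma adjusted p = 0.19).

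The mes-2 arrays also held extreme values of single ribosomal protein genes. Values beyond ±2 were found for 5, 7, 2 and 6 members on mes-2 replicates 1 to 4, 7.46%, 10.4%, 2.99% and 8.96% of them, against 1.10%, 1.93%, 1.29% and 1.20% of all genes on those arrays. Their sign followed the dye. On replicates 1 and 3, where the mutant RNA carried Cy5, all of them were above 2, and on replicates 2 and 4, where it carried Cy3, all were below -2. The 20 values came from 15 members. Over 4 arrays the SD exceeded 1 for 15 members in mes-2 (22.4%, against 5.17% of all genes), for 1 in mes-4 (1.49%, against 1.52%) and for 1 in the double mutant (1.49%, against 4.30%).

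The highest and lowest mes-2 fits all came from such genes. rpl-21 had 1.27, -1.72, 0.29 and -9.17 in mes-2 (fit -2.33, SE 1.15, limma adjusted p = 0.352). rps-4 had 1.72, -4.29, 9.15 and -2.93 (fit 0.91, SE 1.43, adjusted p = 0.843). rps-25 had 2.38, -4.56, -0.05 and -1.95 (fit -1.045, SE 0.69, adjusted p = 0.527). These values changed sign between replicates, and no fit passed. rps-12 had 0.00, 0.21, -0.04 and -6.22 (fit -1.51, SE 0.81, adjusted p = 0.406), rps-29 had 2.89, -0.09, 0.38 and -0.40 (fit 0.695, adjusted p = 0.505), and rps-27 had -0.09, -0.20, 2.17 and 0.36 (fit 0.56, adjusted p = 0.408). In each of these genes 1 array set the fit.

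Array by array, the median of the family took positions that differed between replicates of 1 mutant. Members did not all move with it: over the double mutant arrays the SD was 0.035 for rps-16 and 0.89 for rpl-29. The median over the ribosomal protein genes was 0.28, -0.04, -0.33 and 0.49 on double mutant replicates 1 to 4, 0.17, -0.39, 0.26 and -0.20 on the mes-4 replicates, and -0.13, -0.18, -0.02 and -0.27 on the mes-2 replicates. All 4 mes-2 medians were negative, while those of the other mutants lay on both sides of 0. The mean of the array medians was 0.10 ± 0.36 in the double mutant, -0.04 ± 0.31 in mes-4 and -0.15 ± 0.10 in mes-2 (SD, n = 4 each), so the SD exceeded the mean in the double mutant and in mes-4. By dye, the mean was 0.225 on the Cy5 and -0.025 on the Cy3 arrays of the double mutant, 0.03 and -0.11 in mes-4, and -0.075 and -0.225 in mes-2. The median dye effect over the members was 0.25, against 0.11 over all genes.

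Both subunits shared these shifts. The rpl median was 0.385, -0.05, -0.40 and 0.565 on the double mutant arrays, beside an rps median of 0.22, -0.03, -0.30 and 0.36. In mes-4 the rpl median was 0.15, -0.43, 0.275 and -0.20 and the rps median 0.22, -0.33, 0.11 and -0.20. In mes-2 it was -0.13, -0.165, -0.085 and -0.22 for rpl and -0.13, -0.20, 0.03 and -0.38 for rps. The rpl median exceeded the rps median by 0.06 ± 0.15 in the double mutant, -0.00 ± 0.12 in mes-4 and 0.02 ± 0.11 in mes-2 (SD, n = 4 each), less than its spread in all 3. Mitochondrial ribosomal protein genes had array medians of 0.17, -0.25, -0.87 and 0.33 in the double mutant and -0.40, -0.54, 0.305 and -0.14 in mes-4. In mes-2 these genes had -0.235, -0.35, -0.025 and -0.42, below 0 on all 4 arrays like the ribosomal protein genes. The sperm markers had 0.38, -0.70, -1.68 and 0.45 in the double mutant and -0.335, -0.76, 0.40 and -0.57 in mes-4. Their mes-2 medians were -0.07, 0.60, -0.12 and 0.17. In the double mutant these lists were thus high on replicates 1 and 4 and low on 2 and 3. The ribosomal protein genes were likewise high on 1 and 4 and low on 3. On replicate 2 their median of -0.04 lay near the -0.01 of all genes. The part of these lists in the shifts was not tested.

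Between mutants, 1 member was called higher in the double mutant than in mes-2 (3.57% of all genes) and 1 higher in mes-4 than in mes-2 (0.652% of all genes), rpl-11.2 both times. Between the double mutant and mes-4, limma called 0 members (1.78% of all genes in either direction), and 1 had an unadjusted p under 0.05 (12.6% of all genes), rpl-11.2. Members whose 4 values lay above those of mes-2 without overlap were 2 in the double mutant, rpl-11.2 and rpl-37.2 (4.19% of all genes), and 1 in mes-4, rpl-11.2 (2.64%). The median fitted difference over the members was 0.34 for the double mutant minus mes-2, 0.17 for the double mutant minus mes-4 and 0.12 for mes-4 minus mes-2, against 0.0025, 0.0125 and 0.0025 over all genes. Over the alternatives these medians ran between 0.18 and 0.53, 0.02 and 0.40, and 0.03 and 0.23, and the last 2 also hold the difference between the wild-type strains.

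The members were spread over all chromosomes. Chromosome I held 18 of the 67 (26.9%, against 15.6% of all genes), II 9 (13.4%, against 17.2%), III 17 (25.4%, against 13.5%), IV 14 (20.9%, against 16.0%) and V 7 (10.4%, against 24.1%). Some members are neighbours in the gene table. rps-10 and rpl-24 adjoin on chromosome I and had 0.03 and 0.18 in the double mutant, 0.235 and -0.09 in mes-4, and -0.365 and -0.345 in mes-2. rps-14 and rpl-36 adjoin on chromosome III and had 0.075 and 0.22 in the double mutant, -0.24 and 0.00 in mes-4, and -0.35 and -0.11 in mes-2. None of these fits was called.

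Other genes of protein synthesis were set beside the family, from lists chosen by function. In the double mutant 16 of 27 measured genes of ribosome biogenesis and RNA polymerase I, which make and assemble ribosomal RNA, fell and 0 rose, with a median fitted log2 ratio of -0.72, where 6.25% of all genes fell and 9.62% rose. Their array medians were -1.24, -0.23, -0.67 and -0.87 on double mutant replicates 1 to 4, all below 0, whereas those of the ribosomal protein genes changed sign. The count was 9 without double mutant replicate 1, 10 without replicate 4, 18 without the 2 narrow arrays and 1 when the double mutant arrays were fitted alone, where 0.163% of all genes were called lower. In mes-4, 1 of the 27 fell (median -0.15), and in mes-2 none was called (median -0.23). Of 19 cytoplasmic tRNA synthetases, which charge tRNAs, 3 fell in the double mutant (median -0.50) and 0 were called in mes-4 (0.01) or mes-2 (-0.06).

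The shares of all genes called higher and lower were 9.62% and 6.25% in the double mutant, 2.52% and 1.39% in mes-4, and 3.94% and 1.30% in mes-2, and apply to each list that follows. Of 25 translation initiation factors, 3 rose and 5 fell in the double mutant (median -0.02), 1 rose in mes-4 (-0.02) and 0 were called in mes-2 (-0.10). Of 6 elongation and release factors, 1 rose and 1 fell in the double mutant (median 0.07), 1 rose in mes-4 (0.065) and 0 were called in mes-2 (-0.02). Of 62 mitochondrial ribosomal protein genes, 5 fell in the double mutant (median -0.135), 1 in mes-4 (-0.19) and 1 in mes-2 (-0.24). Of 32 proteasome subunits, taken as another large complex, 3 rose in the double mutant (median 0.10) and 0 were called in mes-4 (-0.02) or mes-2 (-0.11). The shares of the proteasome list called higher and of the mitochondrial list called lower in the double mutant are near those of all genes. None of 5 genes of the TOR and S6 kinase pathway was called in any mutant, nor were ubq-2 and rack-1, which encode a ubiquitin-fused ribosomal protein and a ribosome-bound protein.

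**Figure D4:**
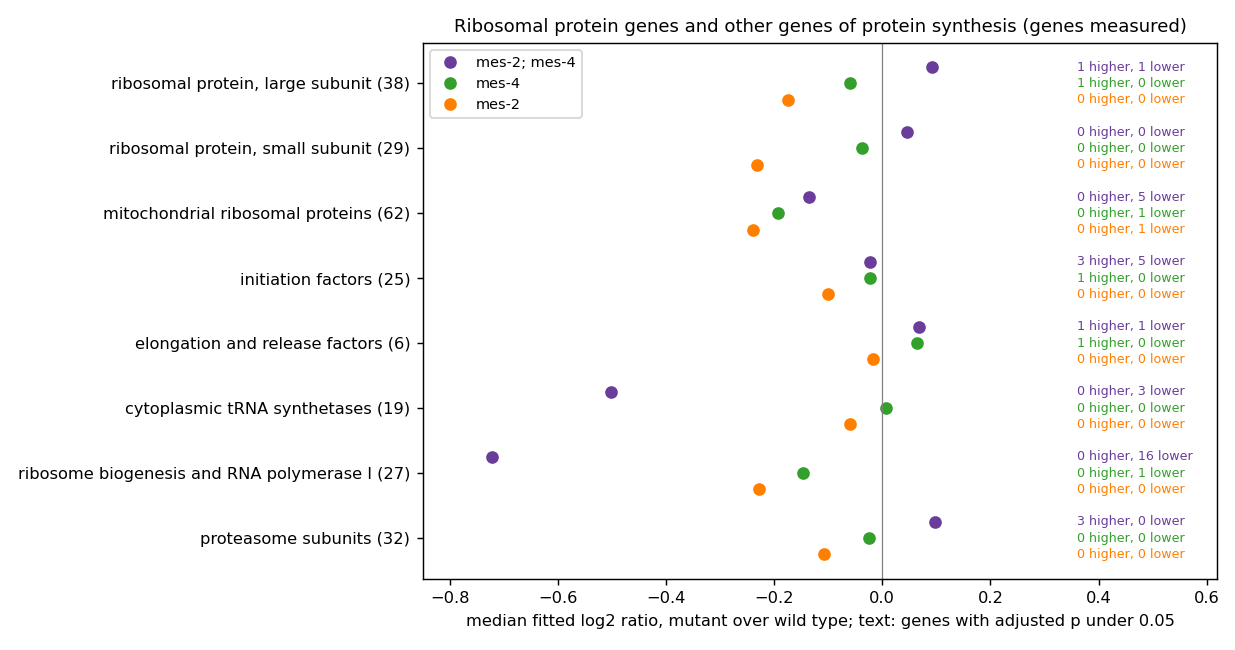
Median fitted log2 ratio of mutant over wild type (horizontal axis) for the genes of each list, with the number measured in brackets, in the double mutant, the mes-4 mutant and the mes-2 mutant. Text at the right gives the genes with a limma adjusted p under 0.05. The biogenesis list lies at -0.72 in the double mutant, and the ribosomal protein lists lie within 0.25 of 0 in every mutant.

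Markers of the germ line and of other tissues were set beside these results. Their ratios show changes relative to wild type and not the makeup of a sample. Of 11 germline markers, 6 fell in the double mutant (median -0.30, between -1.27 for rec-8 and 0.155 for gld-2), 1 fell in mes-4 (median -0.095) and 0 in mes-2 (-0.02). Of 10 oocyte markers 1 fell in the double mutant, cbd-1 at -0.82 being the lowest. None of 27 sperm genes was called, with medians of -0.32, -0.355 and 0.145 in the double mutant, mes-4 and mes-2. None of 12 intestinal markers was called, with medians of 0.13, -0.93 and 0.02. Of 6 neuronal genes 3 rose in the double mutant, 1 in mes-4 and 2 in mes-2, and of 7 sheath and spermatheca markers 1 rose, in mes-4. Of 112 hypodermal genes 2 rose and 2 fell in the double mutant, 1 fell in mes-4 and 1 rose in mes-2. Of 9 muscle markers 1 fell in the double mutant, and 0 of 7 early embryonic genes were called. Their part in the results for ribosomal protein genes was not tested.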

How the data were processed

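The values deposited for each probe of an array are log ratios, read here as log2. Per the labels' protocols, Trizol-extracted total RNA was turned into amplified poly-A RNA and labelled with Cy3 or Cy5. Log base, normalization, spot filter and direction are not given in the sources used here. Channel 1 held mutant RNA and titles name the mutant first, hence a positive value was read as a higher mutant signal. The mutant RNA carried Cy5 on 2 of 4 arrays per group. Of 22490 probes, 17461 named 1 gene, 0 several and 5029 none, and 17297 to 21879 had a value per array. Values ran from -9.31 to 9.15, and array medians from -0.01 to 0.02. Arrays give no depth, and their number limits the precision.

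Probes of a gene were averaged, which left 12887 genes. A single limma 3.58.1 fit (R 4.3.3) over 12 arrays had a coefficient per group and a dye term. Each of 6 contrasts was tested two-sided, with Benjamini-Hochberg adjustment over all genes and a call at adjusted p under 0.05. The fit was tested on simulated data. Gene names and chromosomes came from a gene table of assembly WBcel235.

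Members and lists were chosen with earlier results of these data known. Values on every array are given for members called in a contrast, the 3 highest and 3 lowest per mutant, paralogs and X-linked members. Lists have counts and medians only, and markers of other cells their extremes. Same-numbered arrays of different groups had residual correlations of -0.473 to 0.54, and 4 of 12 pairs were over 0.1. Differently numbered arrays had -0.719 to 0.641, and 13 of 36 pairs were over 0.1. The numbers were therefore taken not to pair arrays, and the fit has no term for these correlations. The alternatives were a fit without the dye term, other scalings, filters, variance models, array weights, a replicate block, a fold threshold and leaving out each array. Sequences were not analysed here.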

Additional observations from a re-analysis of the deposited data

Results flagged for a closer look

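In 71 sets of 4 replicate values tested for a single far value, 4 were found, where chance gives about 1 in 20. The count is thus close to that of chance. rps-12 and rpl-36A were also named for being among the 3 lowest fits of a mutant, so the chance rate need not hold for them. The value of rps-12 on mes-2 replicate 4 was -6.22, far below the other mes-2 arrays. The value of rpl-37.2 on mes-2 replicate 4 was -1.24, while the other mes-2 arrays lay between -0.30 and -0.27. rpl-36A had -2.01 on double mutant replicate 3, and rpl-21 had 0.36 on mes-4 replicate 2, each apart from the other arrays of its mutant. The log2 ratio of rpl-11.2 differed between mutants by the fit's own test, by 1.83 between the double mutant and mes-2 and by 1.19 between mes-4 and mes-2.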

How the results depend on the processing

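rpl-11.2 was called in the double mutant under all 24 alternatives (1.85 to 2.30, limma adjusted p 3.29e-06 to 0.0233), in mes-4 (1.37 to 1.71, adjusted p 1.69e-05 to 0.0159) and in the double mutant minus mes-2 (1.51 to 1.96, adjusted p 0.00035 to 0.0113). In mes-4 minus mes-2 it lost the call with the 1.5-fold threshold, without mes-2 replicate 1, without mes-4 replicate 1 and without the 2 narrow arrays, which was chosen after seeing the data, and 0 members were then called. Leaving out 1 array gave 0 to 2 members there, 1 to 2 in the double mutant minus mes-2 and 0 to 1 in mes-2, the added one being rpl-5 without mes-2 replicate 3. Array weights, which ran between 0.25 for double mutant replicate 3 and 2.91 for mes-4 replicate 2, raised the number of members called to 8 in the double mutant (11.9%, against 25.1% of all genes), 6 in mes-4 (8.96%, against 16.8%), 5 in the double mutant minus mes-2 (7.46%, against 14.0%) and 12 in the double mutant minus mes-4 (17.9%, against 20.5%). Fitting the double mutant arrays alone, or the 1.5-fold threshold, left 1 member there, rpl-11.2, as the share of all genes called fell to 1.34% and 2.75%, against 15.9%. The causes were not tested. The median over the members in the double mutant was -0.04 without its replicate 1 and 0.22 without its replicate 3, and in mes-4 0.04 without replicate 2 and 0.05 without replicate 4, so neither has a stable sign. In mes-2 it stayed at -0.23 to -0.14. With a replicate block beside the dye term, 2, 1 and 0 members were called in the double mutant, mes-4 and mes-2, as without the block. 0 of 12 arrays correlated best with their own number in both other groups. With the block, 10 biogenesis genes were called lower in the double mutant, and 3 with the 1.5-fold threshold. Across alternatives 0 to 13 mitochondrial ribosomal protein genes, 0 to 12 tRNA synthetases and 0 to 7 initiation factors were called lower there. With 4 arrays per mutant and 1 spread per gene shared over all mutants, the intervals of most members reached beyond a 1.5-fold change.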

Other observations

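The elongation factor eEF1A, which brings aminoacyl-tRNA to the ribosome, is also encoded by an X-linked and an autosomal gene, and this pair was picked after its values were seen. The X-linked eef-1A.2 had 1.68, 3.16, 3.60 and 2.72 in the double mutant, 1.21, 1.60, 1.34 and 2.01 in mes-4, and 0.48, -0.19, 0.61 and -0.36 in mes-2. Its fit was 2.79 in the double mutant (SE 0.25, limma adjusted p = 3.03e-05), 1.54 in mes-4 (SE 0.25, adjusted p = 0.00537) and 0.135 in mes-2 (adjusted p = 0.873). eef-1A.1, on chromosome III, had -0.84, -0.53, -0.80 and -0.34 in the double mutant (fit -0.63, SE 0.19, adjusted p = 0.044), with fits of 0.13 in mes-4 (adjusted p = 0.898) and 0.03 in mes-2 (adjusted p = 0.966). The X-linked gene thus rose in the double mutant and in mes-4, as rpl-11.2 did, and the autosomal gene fell in the double mutant, where rpl-11.1 was not called. The fall of eef-1A.1 was close to the threshold, and values under the alternatives are not given here for this pair. The X-linked rpl-23A.1 had 0.305 in the double mutant and -0.23 in mes-4, and neither it nor its autosomal paralog rpl-23A.2 was called.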
